A study of Homo sapiens with 6 samples.

Results

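The repair genes *MGMT*, *MSH3*, *MSH6*, *PMS2*, *MPG*, *APEX1*, *PARP1* and *XRCC1* belong to pathways that act on the DNA lesions that alkylating drugs leave. Their RNA was followed in 3 glioblastoma cell lines with and without *HOTAIRM1* knock-down. The 8 genes were taken by symbol from 59074 listed genes, by a rule that names no measured value, although earlier results of these data were known when it was written. All 8 had a mean of at least 1 CPM (read counts scaled to the depth of the library) over the libraries, as did 14294 listed genes in all, and these 14294 were tested. *MGMT* reached this mean through 1 cell line alone and therefore had to differ between the cell lines.

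RNA sequencing covered LN-229 (named LNT229 in the sample titles), T98G and U251, each an established human glioblastoma cell line, taken 72 h after transfection with a siPOOL, a complex pool of siRNAs. In the siControl group the pool had no target, and in the siHOTAIRM1 group it was directed against the lncRNA *HOTAIRM1*. Each cell line and condition had 1 library (6 libraries in all). There was no test within a cell line, and the 3 cell lines were the replicates of the comparison of siHOTAIRM1 with siControl. Comparisons between cell lines used the siControl and siHOTAIRM1 library of each in place of replicates of 1 condition. Their spread was that left after a treatment effect taken as common to all cell lines.

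MGMT removes the alkyl group from O6-alkylguanine and is used up by doing so. Where this lesion persists through replication it pairs wrongly with thymine, and the mismatch repair proteins that recognize the mispair turn it into a signal for cell death, so that loss of MGMT sensitizes glioblastoma cells to temozolomide and loss of mismatch repair protects them. N-methylated purines made by the same drug are instead taken out by base excision repair. Methylation of CpG dinucleotides in the promoter of *MGMT* is the known route by which the gene is silenced in glioblastoma.

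The promoter of *MGMT* is shown because this gene was the member with RNA in 1 cell line only. The 250 bases before the start site, taken from RefSeq on the plus strand of GRCh38.p14 at chr10:129466991-129467240, carry 36 CpG dinucleotides, which are in capitals.

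MGMT: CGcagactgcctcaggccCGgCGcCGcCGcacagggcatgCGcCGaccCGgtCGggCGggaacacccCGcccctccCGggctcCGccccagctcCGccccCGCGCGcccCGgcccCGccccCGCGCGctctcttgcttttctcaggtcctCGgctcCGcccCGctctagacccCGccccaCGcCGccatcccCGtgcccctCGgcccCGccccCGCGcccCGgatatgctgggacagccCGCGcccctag

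With the 50 bases after the start site added, the window of 300 bases held 45 CpG, a number reached by 3.48% of 35116 promoter windows of the same length, with a median of 14. The other members, all of them matched by symbol, held from 19 CpG in *APEX1* to 39 in *MSH6*, numbers reached by 42.9% and 8.71% of the windows. DNA methylation of these windows was not measured in these samples.

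The depth, read from the steps between low CPM values, was 52.3 to 104 M reads per library, so that 3 reads, taken as the smallest detectable level, were worth 0.0289 to 0.0574 CPM. The listed genes held 42.9 to 67.2% of the CPM scale, and U251 siControl had both the lowest depth and the highest share. *HOTAIRM1* itself fell from 1.99 to 0.952 CPM in LN-229, from 3.49 to 2.15 CPM in T98G and from 1.27 to 0.623 CPM in U251, changes of -52.2%, -38.5% and -51.1%. In U251 the levels of *HOTAIRM1* came from about 67 and 63 reads at depths of 52.3 and 101 M, so that this change rests on the scaling to depth. Over the 3 cell lines its change of log2(CPM + 1) was -0.54 (SE 0.12, limma adjusted p = 0.0146), a call lost without LN-229 (0.071) and without T98G (0.435), after centring each library on its median (0.17), after rescaling (0.204), without the block, without the filter and with a paired t-statistic of each gene. Of the markers of cultured glioma cells, *VIM* and *CD44* were at 254 to 1794 CPM and 304 to 819 CPM, while *NES* was at 329 to 507 CPM in LN-229 and U251 and at 0.956 and 0.866 CPM in T98G. Of the glial genes, *GFAP*, *SOX2* and *PTPRZ1* were at most at 0.055, 0.0145 and 0.0413 CPM in T98G, that is, at no more than 4 reads, while *OLIG2* was at 0.956 and 0.578 CPM there, at 1.43 and 1.69 CPM in LN-229 and at 0.0574 and 0 CPM in U251. *GFAP* was also low in LN-229, at 0.298 to 0.317 CPM, and was at 20.8 to 42.5 CPM in U251. *SOX2* was at 8.1 to 8.6 CPM in LN-229 and 91.4 to 117 CPM in U251, *PTPRZ1* at 21.0 to 34.2 and 71.8 to 90.9 CPM. Leukocyte markers (*PTPRC*, *CD14*, *CD3E*) did not exceed 0.247 CPM. Of the endothelial markers, *PECAM1* did not exceed 0.523 CPM and *CDH5* reached 2.83 CPM in U251 siControl.

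*MGMT* RNA was present in T98G and near or at 0 in LN-229 and U251. *MGMT* was at 7.44 CPM in T98G siControl and at 5.86 CPM in T98G siHOTAIRM1, that is, at about 514 and 426 reads. In LN-229 siControl it had 1 read (0.0113 CPM), and in LN-229 siHOTAIRM1 and both libraries of U251 it was listed at 0. The 2 libraries of T98G thus lay apart from the other 4, all of which were below the level of 3 reads. Among the siControl libraries, the level in T98G was 657 times that in LN-229, with an exact 95% interval of the counting error of 117 to 26000, since it rests on that 1 read. Against 3 reads per library in place of 0, it was at least 130-fold higher in T98G than in U251 among the siControl libraries, and at least 203-fold and 198-fold higher than in LN-229 and U251 among the siHOTAIRM1 libraries. Being under 3 reads in all 4 libraries of LN-229 and U251 was seen in 59 of the 14294 tested genes (0.413%).

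On the log2(CPM + 1) scale, with the treatment as a block, *MGMT* was higher in T98G than in LN-229 by 2.92 (SE 0.14) and than in U251 by 2.93 (SE 0.14) in limma, with Benjamini-Hochberg adjusted p = 3.2e-19 and 3.5e-19. These values describe a gene that passed the filter through T98G, and they are not counted below. *MGMT* did not pass the test between U251 and LN-229 (difference -0.01, 95% interval -0.30 to 0.28), where both levels were under 3 reads. The gene (ENSG00000170430) lies on the plus strand of chromosome 10 of hg38, from 129467241 to 129770983, and its MANE Select transcript has 5 exons and 4678 bases.

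Within T98G, the change of *MGMT* was -21.3%, or -0.35 in log2 CPM with a 95% interval of the counting error of -0.53 to -0.16. Such intervals leave out the spread between libraries, which 1 library per condition cannot give. The median tested gene of T98G changed in the same direction, by -0.19 on the log2(CPM + 1) scale against -0.30 for *MGMT*, which put *MGMT* at percentile 31.8 of the tested genes. The interval of *MGMT* included -0.23, the median change of log2 CPM over the tested genes of T98G with at least 3 reads in both libraries. No change could be given for *MGMT* in LN-229 or U251 at this depth. In such bulk RNA, fewer cells with the RNA and less RNA in each cell cannot be told apart.

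The 5 tested genes whose pattern over the 6 libraries was most like that of *MGMT* were *HS6ST3*, *PYCARD*, *BMP7*, *CES1* and *MCF2L*. Their root mean square differences from *MGMT*, each gene centred on its own mean of log2(CPM + 1), were 0.05, 0.06, 0.07, 0.07 and 0.08, against a median of 1.5 over all other tested genes. *HS6ST3* was at 8.04 and 6.42 CPM in T98G siControl and siHOTAIRM1, *PYCARD* at 7.36 and 6.64 CPM. Of these 5 genes, only *MCF2L* exceeded 3 reads in a library of LN-229 or U251, with 0.181 CPM in LN-229 siControl and 0.0577 CPM in LN-229 siHOTAIRM1.

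**Figure D1:**
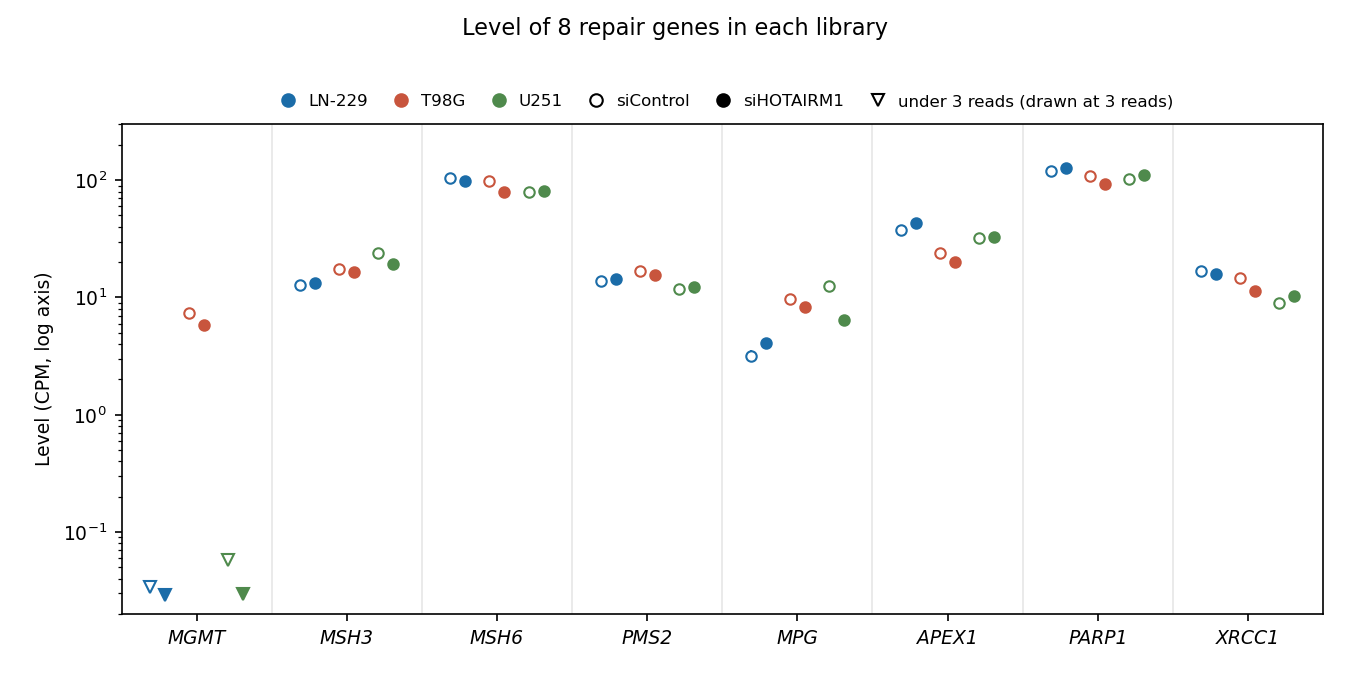
Level of each of the 8 genes (CPM, log axis) in every library, coloured by cell line, with open symbols for siControl and filled symbols for siHOTAIRM1; triangles stand for levels under 3 reads, drawn at the level of 3 reads. *MGMT* was at 7.44 and 5.86 CPM in T98G and under 3 reads elsewhere, while the other 7 genes were detected in all 6 libraries.

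The mismatch recognition genes were expressed in every library. MSH6 and MSH3 are the alternative partners in the 2 complexes that recognize mismatches, MSH6 for single mispairs and short loops and MSH3 for longer loops, and PMS2 is the subunit of the downstream complex that cuts the strand. *MSH6* was at 103.5 and 98.7 CPM in LN-229 (siControl, then siHOTAIRM1), at 98.4 and 79.7 CPM in T98G and at 78.8 and 80.8 CPM in U251. LN-229 lay above both other cell lines, whose ranges overlapped. None of the 3 pairs of cell lines passed the test for *MSH6*, the widest difference being -0.34 (U251 minus LN-229, SE 0.18, limma adjusted p = 0.113). T98G minus U251, 0.15 on the deposited scale, was 0.36 after centring (adjusted p = 0.0286) and 0.55 after rescaling (0.0141).

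*MSH3* was at 12.8 and 13.4 CPM in LN-229, at 17.3 and 16.4 CPM in T98G and at 24.2 and 19.3 CPM in U251. The ranges of the 3 cell lines did not overlap, with U251 highest and LN-229 lowest. Here and below, the share of all tested genes with such separate ranges was not counted. Between 54.9 and 64.2% of the tested genes passed the threshold in each pair of cell lines, so separate ranges are not particular to the members. *MSH3* was higher in U251 than in LN-229 by 0.68 (SE 0.17, limma adjusted p = 0.00109), while T98G differed from its neighbours in this order by 0.34 (adjusted p = 0.0962) and -0.34 (adjusted p = 0.0887), neither past the threshold. T98G minus LN-229 passed after centring (0.43, limma adjusted p = 0.0207) and after rescaling (0.39, 0.0426). The call between U251 and LN-229 was lost without LN-229 siControl (adjusted p = 0.0695), without U251 siControl (0.0615) and when each library was rescaled to the same sum over the listed genes (0.0623).

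*PMS2* was at 13.8 and 14.5 CPM in LN-229, at 16.9 and 15.5 CPM in T98G and at 11.9 and 12.2 CPM in U251. Its levels were highest in T98G and lowest in U251 without overlap. The difference of 0.39 between T98G and U251 (SE 0.17, limma adjusted p = 0.0472) lay at the threshold and was lost without any 1 of the 6 libraries, without the treatment block (adjusted p = 0.0585) and when *PMS2* was summed with its pseudogenes (0.33, adjusted p = 0.0953), while it was 0.61 after centring (0.00184) and 0.79 after rescaling (0.00119). Reads of *PMS2* can be split with these near-identical copies, 9 of which were listed. Summed, they were at 13.9 and 14.6 CPM in LN-229, at 18.6 and 18.5 CPM in T98G and at 14.9 and 15.96 CPM in U251, close to the level of *PMS2*, which is therefore uncertain.

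Per length of the MANE Select transcript, *MSH6* (4265 bases, chromosome 2 from 47783145 to 47806953) was at 18.5 to 24.3 CPM per kb. *MSH3* (4443 bases, chromosome 5 from 80654652 to 80876815) was at 2.89 to 5.44 CPM per kb and *PMS2* (5093 bases, chromosome 7 from 5970925 to 6009049) at 2.33 to 3.31 CPM per kb. In each library *MSH6* was thus the most abundant of the 3 on this scale, and the ranges of *MSH3* and *PMS2* overlapped. Exons of *MSH6* share 530 bases with exons of *FBXO11* on the opposite strand, and since the library kit does not keep the strand, reads from those bases cannot be assigned.

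*MPG*, the glycosylase that removes 3-methyladenine and other alkylated purines, was lowest in LN-229. It was at 3.19 and 4.10 CPM in LN-229, at 9.64 and 8.26 CPM in T98G and at 12.6 and 6.37 CPM in U251. Both libraries of LN-229 lay below the other 4, and the range of U251 enclosed that of T98G. The tests between cell lines take the treatment effect as common to all of them. On knock-down, however, log2(CPM + 1) of *MPG* changed by 0.28 in LN-229 and by -0.88 in U251. *MPG* was higher than in LN-229 by 1.10 in T98G (SE 0.20, limma adjusted p = 1.7e-05) and by 1.11 in U251 (SE 0.20, adjusted p = 1.2e-05), and T98G and U251 differed by -0.01 (95% interval -0.42 to 0.40). Without LN-229 siControl these differences were 0.69 (limma adjusted p = 0.0543) and 0.70 (adjusted p = 0.0504), without T98G siHOTAIRM1 the first was 1.05 (adjusted p = 0.0557), and in the siControl libraries alone they were 1.34 and 1.69.

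*APEX1*, the endonuclease that cuts the backbone at the abasic site left by a glycosylase, was lowest in T98G. Its levels were 38.0 and 43.5 CPM in LN-229, 24.0 and 20.1 CPM in T98G and 31.9 and 32.6 CPM in U251. No ranges overlapped, with U251 between the other cell lines. *APEX1* was lower in T98G than in LN-229 by -0.86 (SE 0.18, limma adjusted p = 9.0e-05) and than in U251 by -0.53 (SE 0.18, adjusted p = 0.00859), and the neighbours U251 and LN-229 were not separated (-0.32, adjusted p = 0.108). The difference between T98G and U251 was -0.15 (adjusted p = 0.419) with the listed genes rescaled, and its call was also lost without T98G siHOTAIRM1, U251 siControl or U251 siHOTAIRM1.

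*XRCC1* encodes the scaffold that gathers the ligase and end-processing enzymes at the nick. It was at 16.9 and 15.9 CPM in LN-229, at 14.6 and 11.3 CPM in T98G and at 8.92 and 10.3 CPM in U251. The 3 ranges did not overlap. *XRCC1* was lower in U251 than in LN-229 by -0.72 (SE 0.18, limma adjusted p = 0.0008), a call lost without U251 siControl (-0.52, adjusted p = 0.0667), while T98G, between them, was not separated from LN-229 (-0.33, adjusted p = 0.12) or from U251 (0.39, adjusted p = 0.0553). The difference from U251 passed after centring (0.60, limma adjusted p = 0.00498) and after rescaling (0.79, 0.0035).

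PARP1 binds the same nick and marks it with poly(ADP-ribose), to which XRCC1 is recruited. *PARP1* was at 120.6 and 126 CPM in LN-229, at 109.5 and 92.1 CPM in T98G and at 103 and 109.9 CPM in U251. LN-229 was highest, and the ranges of T98G and U251 overlapped. No pair of cell lines passed the test for *PARP1*, with differences of -0.29 (T98G minus LN-229, 95% interval -0.68 to 0.09), -0.21 (U251 minus LN-229, -0.59 to 0.17) and -0.08 (T98G minus U251, -0.46 to 0.30).

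Per length, *PARP1* (3978 bases, chromosome 1 from 226360691 to 226408093, minus strand) was at 23.1 to 31.7 CPM per kb and *APEX1* (1453 bases, chromosome 14 from 20455226 to 20457767) at 13.9 to 29.9 CPM per kb. *MPG* (1036 bases, chromosome 16 from 78225 to 85846) was at 3.08 to 12.1 CPM per kb and *XRCC1* (2052 bases, chromosome 19 from 43543311 to 43575527, minus strand) at 4.35 to 8.26 CPM per kb. *MGMT* in T98G, at 1.59 and 1.25 CPM per kb, was below each of the other 7 genes in the same libraries. This order depends on the transcript length taken, 4678 bases for *MGMT*, and the authors' older gene models may differ. Of the 1036 bases of *MPG*, 446 are shared with exons of *NPRL3* on the opposite strand, so that the level of *MPG* is uncertain. *NPRL3* was at 1.495 and 2.01 CPM in LN-229, at 4.72 and 5.93 CPM in T98G and at 3.005 and 3.79 CPM in U251, higher after knock-down in each cell line, also in U251 where *MPG* was lower.

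Of the 7 members other than *MGMT*, 2 passed the threshold between T98G and LN-229 (*MPG*, *APEX1*), 3 between U251 and LN-229 (*MPG*, *MSH3*, *XRCC1*) and 2 between T98G and U251 (*APEX1*, *PMS2*). These counts stood against 54.9%, 60.6% and 64.2% of all tested genes, below which the share of members lay on the deposited scale in each pair of cell lines. The comparisons share libraries with each other. The median tested gene differed by -0.08, 0.15 and -0.22 in the same order, and when each library was centred on its median, 3, 7 and 4 of the 7 members passed, against 57.5%, 62.1% and 64.3% of the tested genes. After rescaling, 3, 6 and 3 of the 7 passed, against 54.8%, 59.1% and 60.8% of the tested genes, so that for U251 against LN-229 the members' share lay above the background under both alternatives. Of all genes past the threshold, those higher in the first-named cell line made up 43.9%, 60.5% and 36.0% as deposited, 50.8%, 51.7% and 49.5% after centring, and 47.3%, 38.1% and 59.2% after rescaling. After centring, *MSH6*, *PMS2*, *APEX1* and *PARP1* were lower in U251 than in LN-229 by -0.46, -0.34, -0.45 and -0.34 (limma adjusted p = 0.00947, 0.0328, 0.00866 and 0.039), differences that did not pass on the deposited scale. The direction of *MPG* and *PARP1* between T98G and U251 turned under centring and under rescaling, and that of *MSH3* under rescaling.

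**Figure D2:**
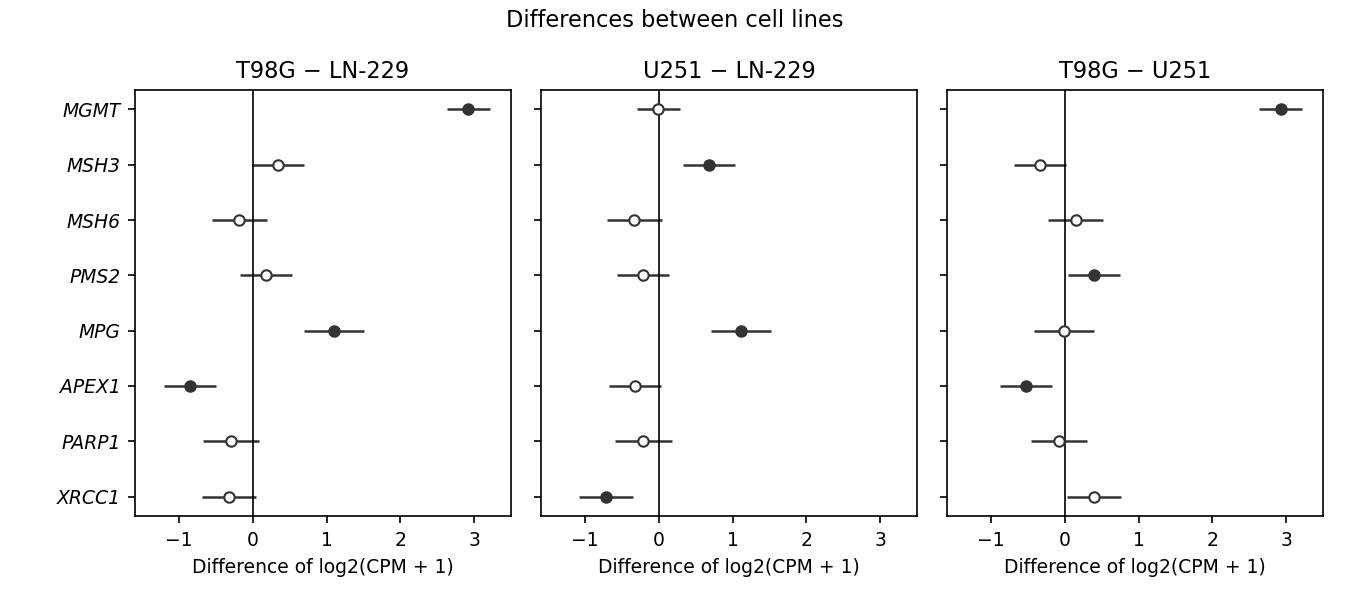
Difference of log2(CPM + 1) between cell lines for each of the 8 genes (points) with its 95% interval from limma (lines), filled where the adjusted p was under 0.05. Beside *MGMT*, with 2.92 and 2.93 in favour of T98G, filled points are *MPG* and *APEX1* for T98G minus LN-229, *MPG*, *MSH3* and *XRCC1* for U251 minus LN-229, and *APEX1* and *PMS2* for T98G minus U251. *MGMT* passed the filter through T98G alone, so its filled points are not counted as results of the test.

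On *HOTAIRM1* knock-down, none of the 7 members other than *MGMT* passed the test over the 3 cell lines, and none had a change in 1 direction in all of them. Over all tested genes, limma with the cell line as a block called 286 of 14294 (2.0%), 59 higher and 227 lower in siHOTAIRM1, and 2622 had an unadjusted p under 0.05. Of these 7 members, 0 were among the former and 0 among the latter. *MGMT* was not counted, since its fitted change would average T98G with 2 cell lines under 3 reads. The changes of the 7 of log2(CPM + 1) ranged from -0.27 in *MPG* to -0.00 in *PMS2*, beside a median of -0.07 over the tested genes. The 95% intervals of the change reached from -0.40 to 0.18 in *MSH3*, from -0.42 to 0.19 in *MSH6* and from -0.29 to 0.29 in *PMS2*. In *MPG* the interval was -0.60 to 0.07 (limma adjusted p = 0.392), in *APEX1* -0.30 to 0.28, in *PARP1* -0.34 to 0.28 and in *XRCC1* -0.38 to 0.22, and changes within these limits remain possible.

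The p-values and intervals use a spread that limma draws from these 6 libraries and toward that of other genes of like mean level. For a gene whose change varies widely between cell lines, such as *MPG*, the interval can be narrower than its own changes would give. An exact two-sided permutation test over 3 pairs cannot give a p below 0.25 for a single gene. After centring, 41 genes passed (36.6% of them higher in siHOTAIRM1, against 20.6% on the deposited scale), and after rescaling 25 (40.0% higher), with no member among them under either. Rescaling moved the median of the tested genes from -0.07 to 0.05, and under it only *MPG* of the 7 kept a negative change.

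In T98G all 8 members were below their siControl level, where 79.3% of the tested genes were. In LN-229, 2 of the 7 members other than *MGMT* were below siControl (46.3% of the tested genes), and in U251 also 2 of 7 (53.2%). No member was lower in all 3 cell lines, as 28.1% of the tested genes were, and none was higher in all 3, as 11.4% were. The median change of the members was 0.06 in LN-229 (7 members), -0.25 in T98G (8 members) and 0.03 in U251 (7 members), beside 0.01, -0.19 and -0.03 over the tested genes. The share of the CPM scale on listed genes, which went from 47.0 to 48.5% in LN-229, from 50.2 to 42.9% in T98G and from 67.2 to 55.9% in U251 between siControl and siHOTAIRM1, also moved, and its part in these changes was not tested.

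*MPG* had the widest spread of changes among the members. Its change of log2 CPM was 0.36 in LN-229 (95% interval of the counting error 0.14 to 0.58), -0.22 in T98G (-0.38 to -0.06) and -0.98 in U251 (-1.14 to -0.82). In U251 this was a change of -49.3%, at percentile 2.60 of the tested genes of that cell line, while in LN-229 it was one of 28.3%, at percentile 92.9. In T98G it lay at percentile 48.3, near the median gene. Rescaling left the change in U251 at -0.67 on the log2(CPM + 1) scale, and U251 siControl was the library with the lowest depth and the highest share of listed genes.

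The strand-cutting and nick-handling genes had their changes of opposite sign in different cell lines as well. *APEX1* changed by 0.20 in LN-229 (0.13 to 0.26), by -0.25 in T98G (-0.36 to -0.15) and by 0.03 in U251 (-0.05 to 0.12). *XRCC1* changed by -0.09 (-0.20 to 0.01), -0.36 (-0.49 to -0.23) and 0.20 (0.05 to 0.36) in the same order. *PARP1* changed by 0.06 (0.03 to 0.10), -0.25 (-0.30 to -0.20) and 0.09 (0.05 to 0.14). In these genes T98G was the cell line with the lowest change, and relative to the median tested gene there the changes of *APEX1*, *XRCC1* and *PARP1* on the log2(CPM + 1) scale were -0.05, -0.15 and -0.06.

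Among the mismatch recognition genes, *MSH6* changed by -0.07 in LN-229 (-0.11 to -0.03), by -0.30 in T98G (-0.36 to -0.25) and by 0.04 in U251 (-0.02 to 0.09). *MSH3* changed by 0.06 (-0.05 to 0.17), -0.08 (-0.19 to 0.04) and -0.32 (-0.42 to -0.22). *PMS2* changed by 0.08 (-0.03 to 0.18), -0.12 (-0.24 to -0.01) and 0.04 (-0.10 to 0.18). *MSH3* and *MPG* were thus the members with their lowest change in U251, and *PMS2* was the member whose changes stayed closest to 0.

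**Figure D3:**
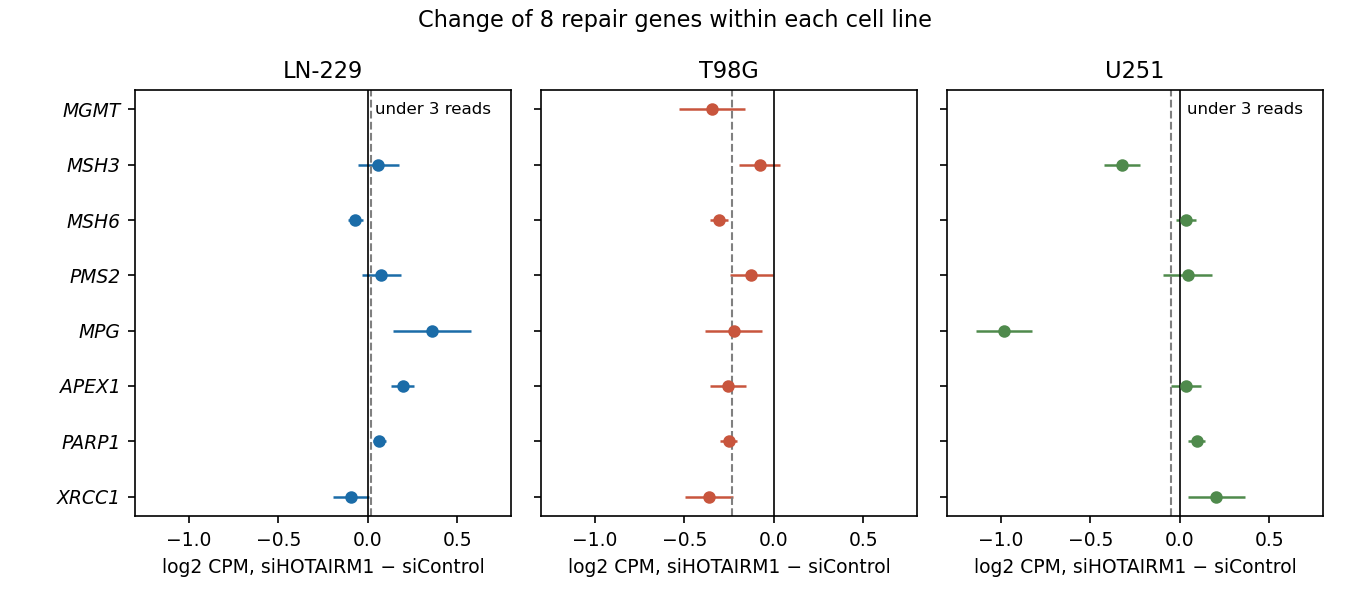
Change of log2 CPM, siHOTAIRM1 minus siControl, within each cell line (points) with 95% intervals of the counting error (lines), a solid line at no change and a dashed line at the median change of log2 CPM over the tested genes with at least 3 reads in both libraries. All 8 genes lay left of 0 in T98G, whose dashed line is at -0.23, and *MPG* ran from 0.36 in LN-229 to -0.98 in U251.

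The other genes of these pathways were looked at in 6 lists with 54 genes, members included, all of them past the filter. *MGMT* is kept in these counts and medians, although it passed the filter through T98G alone and its change says nothing about LN-229 or U251. Of the 54, 1 was higher and 1 lower in siHOTAIRM1 past the threshold, beside 2.0% of all tested genes called. The unadjusted p was under 0.05 in 9 of the 54 (16.7%), beside 18.3% of all tested genes. The median change over the lists was -0.12, beside -0.07 over all tested genes. In LN-229 40.7% of the 54 were below siControl, as were 92.6% in T98G and 57.4% in U251, beside 46.3%, 79.3% and 53.2% of all tested genes.

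In direct reversal, 0 of 6 genes passed. The changes farthest from 0 were -0.30 in *ASCC3*, the helicase that works with the demethylase ALKBH3, 0.23 in its partner *ASCC1* and -0.12 in *ALKBH2*, with limma adjusted p = 0.259, 0.398 and 0.678. In mismatch recognition and excision, 0 of 6 passed, with -0.23 in *EXO1*, the exonuclease that removes the mismatched strand (adjusted p = 0.398), -0.16 in *PMS1* (0.575) and -0.11 in the member *MSH6* (0.734). The list medians were both -0.11.

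Of 10 DNA glycosylases 1 passed. *TDG*, which excises thymine and uracil opposite guanine, went from 29.2 to 22.3 CPM in LN-229, from 16.7 to 12.2 CPM in T98G and from 33.3 to 19.5 CPM in U251. *TDG* was lower in siHOTAIRM1 in each cell line, by -0.51 over the 3 (SE 0.14, limma adjusted p = 0.0491). The call was lost in each alternative except the pseudocount of 0.1 (adjusted p = 0.0193), among them leaving out LN-229 (0.0869), T98G (0.581) or U251 (0.577). The median of the list was -0.12.

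In incision, gap filling and ligation, 0 of 12 genes passed, and the median was -0.04. The lowest were *APTX* (-0.38, limma adjusted p = 0.142), which removes adenylate from failed ligations, the gap-filling polymerase gene *POLB* (-0.36, 0.177) and the flap nuclease gene *FEN1* (-0.26, 0.346). In poly(ADP-ribose) signalling, 0 of 7 passed and the median was -0.13, with -0.36 in *HPF1* (adjusted p = 0.187), the cofactor that directs PARP1 to serine, -0.20 in *PARP3* (0.475) and -0.16 in *ADPRS* (0.597).

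Of 13 genes of the resynthesis step that repair shares with replication, 1 passed, and the median was -0.20. *RPA1*, the large subunit of the single-strand binding protein, went from 23.5 to 39.1 CPM in LN-229, from 35.5 to 45.0 CPM in T98G and from 34.7 to 63.1 CPM in U251. *RPA1* was higher in siHOTAIRM1 in each cell line, by 0.63 over the 3 (SE 0.15, limma adjusted p = 0.016). The genes of the other subunits did not rise with it. *RPA2* changed by -0.27 (limma adjusted p = 0.315) and *RPA3* by -0.48 (0.0981), with 0.03 and 0.02 in LN-229. The call for *RPA1* was lost when any 1 cell line was left out, with adjusted p = 0.0813 without LN-229, 0.354 without T98G and 0.267 without U251, and after rescaling (0.0792), without the filter or block and with a paired t-statistic of each gene.

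**Figure D4:**
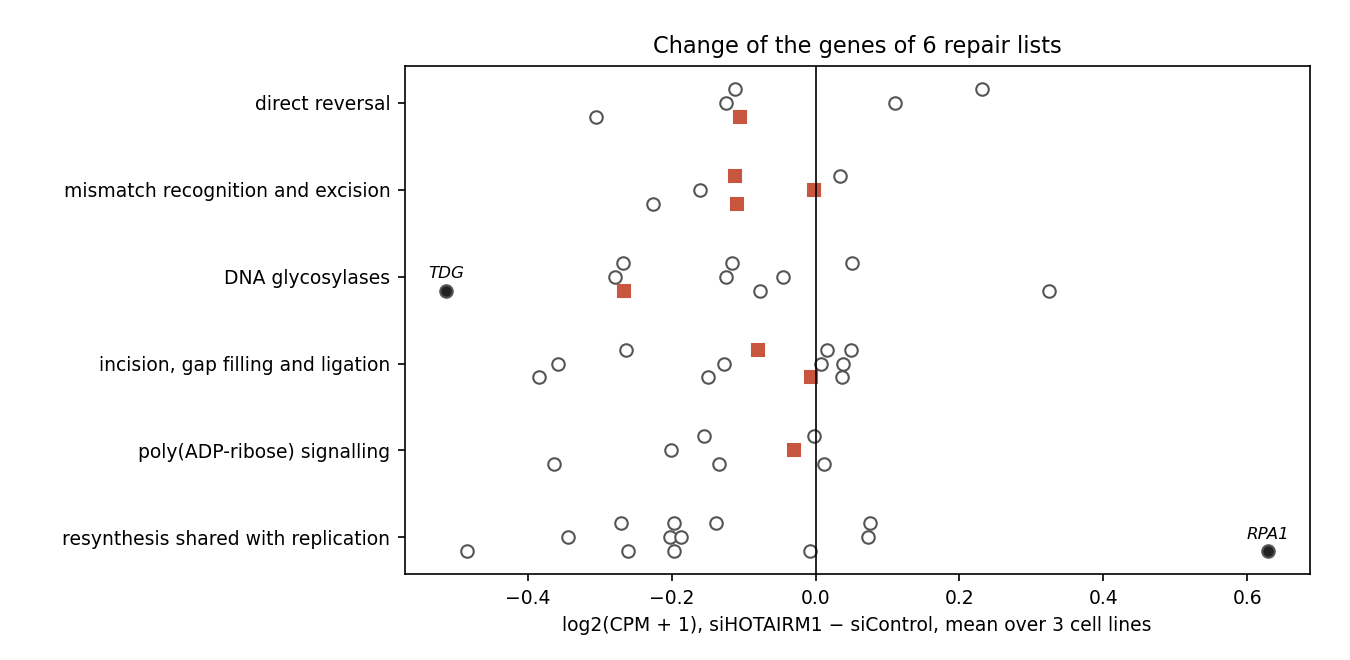
Change of log2(CPM + 1), siHOTAIRM1 minus siControl, as the mean over the 3 cell lines, for each gene of the 6 repair lists, with the 8 members as squares and genes past the threshold as filled circles. The members lay between -0.27 and -0.00, and the filled circles are *RPA1* at 0.63 and *TDG* at -0.51. The square of *MGMT*, at -0.11, averages T98G with LN-229 and U251, where *MGMT* was under 3 reads.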

How the data were processed

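RNA of 3 glioblastoma cell lines was sequenced with TruSeq RNA v2 libraries, 1 per cell line and condition. The authors trimmed the reads, aligned them to hg38 with STAR 2.4.1d in Partek Flow, quantified them on Ensembl genes by expectation maximization and deposited CPM with 0.0001 added, which was subtracted here for levels. As only 80.1 to 81.4% of values below 1000 reads were whole (tolerance 0.01 read), no count test was made.

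Changes are differences of log2(CPM + 1). The mean over the libraries had to reach 1 CPM, which left 14294 genes for limma (version 3.58.1 in R, version 4.3.3), fitted with a trend of variance on mean, terms for cell line and treatment, and Benjamini-Hochberg adjustment over all tested genes in each comparison, two-sided, with a threshold of 0.05. The libraries pair by cell line. After the condition means were removed, libraries of the same cell line correlated over genes at r = 0.95 to 0.97 and those of different cell lines at -0.53 to -0.47. Intervals of changes within a cell line use reads estimated from the CPM of 1 read and cover counting error only. The script was tested on simulated data.

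All 8 members were named, together with *HOTAIRM1*, the genes of each list past the threshold (otherwise the 3 with the largest absolute change) and the 5 genes most like *MGMT*. The members and lists were chosen with earlier results of these data known. Genes that passed no such rule are named only where their values bear on a member or on a gene named by rule, or as other observations. Some further genes of these pathways are not reported here. Positions on hg38 follow GENCODE v44, which is newer than the authors' Ensembl genes, and promoters are from RefSeq. The alternatives were no block, a pseudocount of 0.1, no filter, median centring, rescaling of each library to the same sum over the listed genes, no trend, a paired t-statistic of each gene, *PMS2* summed with its pseudogenes, the siControl libraries alone and leaving out each cell line or library. Python 3.11.15 was used for the other steps, with the packages matplotlib 3.10.9, scipy 1.17.1, pandas 2.3.3 and numpy 2.4.6.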

Additional observations from a re-analysis of the deposited data

Results flagged for a closer look

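In 10 of the repair genes named above, the change on *HOTAIRM1* knock-down had opposite signs in different cell lines, each of which had 1 pair of libraries, and the difference was not tested. Of all tested genes, only 28.1% were lower and 11.4% higher in all 3 cell lines. Mixed signs were thus frequent in general and are not particular to the repair genes. Between the cell line with the highest and the one with the lowest change of log2(CPM + 1), the gap was 1.16 in *MPG*, 0.66 in *HPF1*, 0.52 in *XRCC1*, 0.52 in *PARP3*, 0.43 in *APEX1*, 0.42 in *ADPRS*, 0.36 in *MSH3*, 0.34 in *PARP1*, 0.34 in *MSH6* and 0.19 in *PMS2*. In 4 of the 10 (*MPG*, *APEX1*, *PARP1* and *XRCC1*) a rise in 1 cell line and a fall in another both lay beyond the counting error. In *APEX1*, *PARP1* and *XRCC1* that fall was in T98G, and its interval included the median change of log2 CPM there, -0.23. In *MPG* the intervals in LN-229 and U251 left out the medians of those cell lines, 0.02 and -0.05. Relative to the median tested gene of each cell line, the signs were still opposite in 8 of the 10, not in *PMS2* and *HPF1*.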

How the results depend on the processing

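With the cell line as a block, 286 genes passed on knock-down, and without this block 0 did (29 at an unadjusted p under 0.05). The number was 0 without the filter (2477 unadjusted), 0 with a paired t-statistic (896 unadjusted), 25 after rescaling, 41 after centring, 185 without a trend and 683 with a pseudocount of 0.1, and leaving out a cell line gave 0 (without T98G, 1206 unadjusted), 149 (without U251) and 271 (without LN-229). Between T98G and LN-229, leaving out a library gave 5107 to 8046, beside 7851 with all libraries. The call for *HOTAIRM1* was lost without LN-229, without T98G, without the block or filter, after centring or rescaling and with the paired t-statistic. No member passed on knock-down under any alternative, but signs turned. After rescaling the changes were 0.0345 in *MSH3*, 0.0364 in *MSH6*, 0.14 in *PMS2*, 0.14 in *APEX1*, 0.12 in *PARP1*, 0.0589 in *XRCC1* and 0.0036 in *ALKBH2*; after centring 0.0764 in *PMS2*, 0.0721 in *APEX1* and 0.0482 in *PARP1*; and 0.0287 in *PMS2* with its pseudogenes. Without 1 cell line they ranged from -0.0385 to 0.0554 in *PMS2*, -0.54 to 0.0406 in *MPG*, -0.11 to 0.11 in *APEX1*, -0.092 to 0.0783 in *PARP1* and -0.21 to 0.048 in *XRCC1*. For T98G minus U251, *MSH3* was 0.0448 rescaled, *MPG* 0.20 centred and 0.37 rescaled (-0.47 to 0.45 without 1 library) and *PARP1* 0.13 and 0.32 (-0.25 to 0.0808). *MGMT* in U251 minus LN-229 was -0.0872 to 0.0709 without 1 library. Within T98G, *PMS2* was 0.0727 relative to the median and 0.10 rescaled, and *MPG* 0.0053 rescaled. The causes were not tested.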

Other observations

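*MLH3* and *APLF*, chosen here after their values were seen, were each under 1 CPM in 1 cell line and well above it in the others. *MLH3*, a partner in mismatch repair and meiotic recombination complexes, was at 0.521 and 0.433 CPM in LN-229 (siControl, then siHOTAIRM1), at 19.8 and 20.2 CPM in T98G and at 10.9 and 12.4 CPM in U251. *APLF*, a poly(ADP-ribose)-binding factor of strand break repair, was at 5.13 and 4.63 CPM in LN-229, at 3.95 and 3.49 CPM in T98G and at 0.249 and 0.0988 CPM in U251. The libraries of LN-229 for *MLH3* and of U251 for *APLF* lay apart from the other 4. Neither gene passed the test on *HOTAIRM1* knock-down, with changes of 0.03 and -0.15 (limma adjusted p = 0.93 and 0.554).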
